A study of Mus musculus with 6 samples.

Results

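Goblet cells are the mucus-secreting cells of the airway lining, and 10 genes that mark them or that come on when airways turn mucous were followed here through the lungs of mice with and without a mutation that makes chromosomes unstable. The 10 were selected from the 25860 genes of the deposited count table with the measured levels of these same libraries known, so every level and difference of theirs given here is a description. They are, with the Entrez Gene IDs of the table, Muc5ac (17833), Muc5b (74180), Clca1 (23844), Clca3b (229927), Spdef (30051), Foxa3 (15377), Agr2 (23795), Tff2 (21785), Itln1 (16429) and Fcgbp (215384). All 10 were found in the table, and all 10 reached the 10 summed counts asked of a gene for testing.

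Total RNA of normal-looking lung was sequenced from 6 mice, of which replicates 1 to 3 were RAG1-/- and replicates 4 to 6 were RAG1-/-Sgo1-/+, all kept to 12 months of age without treatment and bred on C57BL/6. Both groups lack RAG1, which makes the recombinase for antigen receptor genes, so neither should have mature T or B cells. They differ in Sgo1, the Shugoshin-1 gene for a protector of chromosome cohesion, of which the second group carries 1 mutant copy in every cell. The study asked what chromosome instability does to the lung. Total counts ran from 3205822 in replicate 6 to 9366774 in replicate 1, so that 3 counts, taken as the smallest amount detected, equal 0.320 to 0.936 CPM (counts per 1000000 counts of the library). At 0 to 6 counts for Sgo1 and 8 to 24 for Rag1 the genotypes could not be checked on the targeted genes. The library labelled RAG1-/- replicate 2 held 1853 counts of the immunoglobulin gene Igkc against 0 to 8 in the other libraries, which goes against its label, and replicate 1 was the 1 library with Xist (7717 counts) and without the Y-linked Ddx3y (2 counts), so that sex differed between the libraries.

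Airway mucus is a gel of the large secreted mucins Muc5ac and Muc5b. In mouse airways Muc5b is made by secretory cells at rest, whereas Muc5ac, Clca1 and the factors Spdef and Foxa3 come on when interleukin-13 acts through Stat6 and turns club cells into goblet cells, a change called mucous metaplasia. Agr2 folds mucins in the endoplasmic reticulum, and Tff2, Itln1 and Fcgbp are secreted with the mucus.

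Promoter sequences are shown for the 4 members of most use here: Spdef and Clca3b, which hold a match to a forkhead (FOXA-type) motif, and Itln1 and Fcgbp, among the genes that stood furthest apart in replicate 6. Each runs from 250 bases before to 50 bases after the gene's start, 5′ to 3′ on the gene's strand, from RefSeq on GRCm38.p6, a later build than that of the counts. They lie at chr17:27728902-27729201 on the minus strand (Spdef), chr3:144849253-144849552 on the minus strand (Clca3b), chr1:171535245-171535544 on the minus strand (Itln1) and chr7:28070986-28071285 on the plus strand (Fcgbp). Capitals mark the motif matches.
Spdef: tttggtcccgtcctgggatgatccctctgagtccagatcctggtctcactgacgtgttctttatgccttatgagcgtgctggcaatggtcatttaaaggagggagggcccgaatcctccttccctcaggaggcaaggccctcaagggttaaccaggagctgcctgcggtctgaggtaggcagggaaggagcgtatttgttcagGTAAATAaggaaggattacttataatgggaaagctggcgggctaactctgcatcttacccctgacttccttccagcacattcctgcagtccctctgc
Clca3b: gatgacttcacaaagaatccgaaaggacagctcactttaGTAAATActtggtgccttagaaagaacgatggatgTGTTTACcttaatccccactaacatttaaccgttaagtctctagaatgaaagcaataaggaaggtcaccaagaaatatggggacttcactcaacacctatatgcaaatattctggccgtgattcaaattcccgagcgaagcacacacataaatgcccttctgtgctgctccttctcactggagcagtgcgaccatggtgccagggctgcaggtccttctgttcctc
Itln1: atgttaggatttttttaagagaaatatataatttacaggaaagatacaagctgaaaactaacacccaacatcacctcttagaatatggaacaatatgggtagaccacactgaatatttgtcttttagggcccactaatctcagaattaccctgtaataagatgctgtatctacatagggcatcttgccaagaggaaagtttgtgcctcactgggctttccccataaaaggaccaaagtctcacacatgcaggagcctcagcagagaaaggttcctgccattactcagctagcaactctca
Fcgbp: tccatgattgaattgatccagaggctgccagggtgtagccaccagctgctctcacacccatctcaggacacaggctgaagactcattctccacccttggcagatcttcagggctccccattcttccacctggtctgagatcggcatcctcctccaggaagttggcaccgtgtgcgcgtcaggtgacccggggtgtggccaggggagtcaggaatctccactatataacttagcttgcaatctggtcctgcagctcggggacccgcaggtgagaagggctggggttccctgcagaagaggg

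The forkhead motif was searched as TNTTTAC on both strands, and it occurs in 12.4% of the 32851 mouse promoters of that table. Among the 6 members with a promoter entry (these 4, Foxa3 and Agr2) it was found in 2. Clca3b has a match 211 bases and another 176 bases before the start, and Spdef has a match 47 bases before it. A Stat6-type motif, TTC and GAA with 4 bases between them, is in 6.95% of the promoters and in 0 of the 6. A TATAAA box is in 13.6% of them and, among the 6, in Foxa3 alone, 36 bases before the start. A match here is a string of letters and not a bound site.

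The picture shared by the 10 genes was a single lung. Replicate 6 of RAG1-/-Sgo1-/+ held the highest level of every member, and for 8 of the 10 it lay at least 2-fold above each of the other 5 libraries, whereas replicates 4 and 5 of the same genotype lay in the range of RAG1-/- or below it for 9 of the 10, Clca3b being the exception. Of all 17231 genes tested, 25.4% were highest in replicate 6 and 2.51% were at least 2-fold above every other library there (432 genes). The other libraries each had 50 to 161 such genes. Clca3b, among the 8 members, reached the count for testing only through replicate 6 (30 of its 34 counts). Its place among them follows in part from the filter. In these bulk samples more cells of a type and more RNA per cell cannot be told apart.

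**Figure D1:**
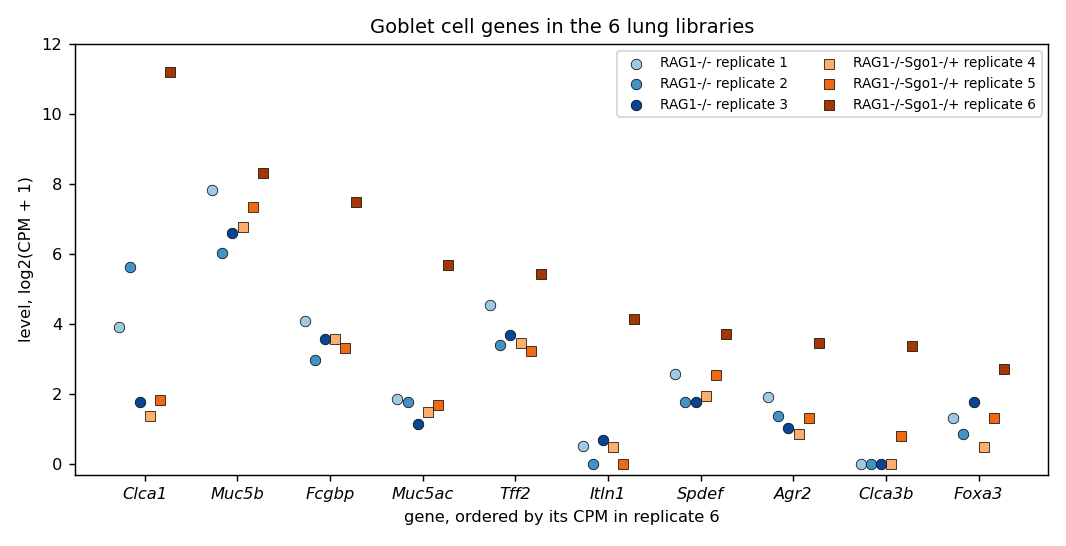
Level of each of the 10 goblet cell genes in the 6 libraries, as log2(CPM + 1), with a point per library (circles RAG1-/-, squares RAG1-/-Sgo1-/+), the genes ordered by their CPM in replicate 6. The darkest square, replicate 6, is the highest point for all 10 genes, from 5.61 CPM for Foxa3 to 2344 CPM for Clca1.

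Of the gel-forming mucins, Muc5ac stood apart in replicate 6 and Muc5b did not. Muc5ac, the mucin of metaplastic goblet cells, was at 2.67, 2.42 and 1.21 CPM in RAG1-/- and at 1.82, 2.22 and 50.2 CPM in RAG1-/-Sgo1-/+ (25, 12 and 8 counts against 9, 12 and 161). The first 5 of these levels lay within 2.21-fold of each other, and replicate 6 was 18.8-fold above the highest of them. The log2 fold change of the edgeR fit, RAG1-/-Sgo1-/+ over RAG1-/-, was 3.02 (SE 1.11, n = 3 each), and it was −0.059 (SE 0.61) without replicate 6.

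Muc5b, the mucin of the resting airway, was at 228.7, 64.0 and 95.6 CPM in RAG1-/- and at 109.5, 161.2 and 319.1 CPM in RAG1-/-Sgo1-/+. Replicate 1 of RAG1-/- lay above replicates 4 and 5, and replicate 6 was 1.40-fold above replicate 1. The group means were 129.5 ± 87.4 and 196.6 ± 109.2 CPM (SD, n = 3), a difference smaller than the spread within either group. The log2 fold change was 0.59 (SE 0.47), and 0.055 (SE 0.44) without replicate 6. The ratio of Muc5ac to Muc5b counts, each divided by transcript length, was 1.62, 5.27 and 1.76% in RAG1-/-, 2.31 and 1.92% in replicates 4 and 5, and 21.9% in replicate 6.

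Clca1, a secreted metalloprotease of goblet cells that is among the genes most raised by interleukin-13, carried the largest part of the signal. Its levels were 14.0, 48.9 and 2.42 CPM in RAG1-/- and 1.62, 2.59 and 2344 CPM in RAG1-/-Sgo1-/+ (131, 242 and 16 counts against 8, 14 and 7513). Replicate 6 was 47.9-fold above the second highest library. That library was the one labelled RAG1-/- replicate 2, with its immunoglobulin reads, and the part of that in its Clca1 level was not tested. The log2 fold change was 5.20 (SE 2.10) over all 6 libraries, 6.52 without replicate 2, and −3.31 (SE 1.09) without replicate 6. Over the 5 libraries other than replicate 6 the levels still ranged 30.3-fold, the widest range among the members with reads in all 5, and the 2 highest of those 5 were RAG1-/- lungs.

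Clca3b, a relative of Clca1, gave no read in the 3 RAG1-/- libraries or in replicate 4, 4 counts in replicate 5 (0.741 CPM) and 30 counts in replicate 6 (9.36 CPM). Against the level of 3 counts per library, a mean of 0.460 CPM in RAG1-/-, the RAG1-/-Sgo1-/+ mean was at least 7.32-fold higher, and replicate 6 taken by itself at least 20.3-fold higher. The fitted log2 fold change, 7.20, depends on the prior count. Without replicate 6 the gene had too few counts to be tested. Of its transcript, 5.98% of the 50-base stretches also occur in another gene, most of them in Clca3a2, which had 0 to 2 counts in each library.

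The regulators of the goblet cell programme differed less. Spdef, an ETS factor needed for goblet cell maturation, was at 4.91, 2.42 and 2.42 CPM in RAG1-/- and at 2.83, 4.82 and 12.2 CPM in RAG1-/-Sgo1-/+. Foxa3, a forkhead factor, was at 1.49, 0.808 and 2.42 CPM in RAG1-/- and at 0.404, 1.48 and 5.61 CPM in RAG1-/-Sgo1-/+, from 2 to 18 counts per library. Replicate 6 was 2.48-fold and 2.32-fold above the second highest library, and for both genes the other 5 libraries of the 2 genotypes overlapped. The log2 fold changes were 0.94 (SE 0.55) for Spdef and 0.55 (SE 0.85) for Foxa3, and they were 0.21 (SE 0.51) and −0.73 (SE 0.83) without replicate 6.

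Agr2, the disulphide isomerase of mucin folding, was at 2.78, 1.62 and 1.06 CPM in RAG1-/- and at 0.808, 1.48 and 9.98 CPM in RAG1-/-Sgo1-/+. Replicate 6 lay 3.60-fold above replicate 1, and replicate 4 was the lowest of the 6. Its log2 fold change was 1.05 (SE 0.86), and −0.68 (SE 0.73) without replicate 6.

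The secreted proteins that accompany mucins were raised unequally in replicate 6. Fcgbp, a mucin-like protein that binds IgG Fc, was at 16.0, 6.87 and 10.9 CPM in RAG1-/- and at 10.9, 8.89 and 178 CPM in RAG1-/-Sgo1-/+. Its first 5 levels lay within 2.33-fold of each other, and replicate 6 was 11.1-fold above the highest of them. Its log2 fold change of 2.47 (SE 0.97) was −0.21 (SE 0.35) without replicate 6. Of the 50-base stretches in its transcript, 8.55% also occur in another gene, mainly 9530053A07Rik, so some of its reads may belong there.

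Itln1, a lectin of mucous cells that binds microbial sugars, had 4, 0 and 4 counts in RAG1-/- and 2, 0 and 54 counts in RAG1-/-Sgo1-/+, or 0.427, 0 and 0.605 CPM against 0.404, 0 and 16.8 CPM. It had 4 counts or fewer in 5 lungs, and replicate 6 was 27.8-fold above the highest of those. Its fitted log2 fold change was 3.80 (SE 1.58), and −0.84 (SE 1.55) without replicate 6.

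Tff2, a trefoil peptide that is secreted with gel-forming mucins, was at 22.5, 9.70 and 12.0 CPM in RAG1-/- and at 10.1, 8.34 and 41.8 CPM in RAG1-/-Sgo1-/+. Replicate 1 of RAG1-/- came within 1.86-fold of replicate 6. For Tff2 the log2 fold change of 0.37 (SE 0.56) was −0.70 (SE 0.37) without replicate 6, with replicates 4 and 5 near the lowest RAG1-/- level.

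Taking the 10 genes as a list, the fitted log2 fold change was positive for 10 and at least 2-fold for 6, and its median was 1.76 against 0.034 over all tested genes. Without replicate 6, 9 members could be fitted, of which 7 had a negative value and 2 a positive one, with a median of −0.68 against 0.018 over all genes. With limma-voom on all 6 libraries the median was 0.60, and the value of Clca1 was 0.16. With edgeR's quasi-likelihood test and Benjamini-Hochberg adjustment, 0 of the 10 were called at an adjusted p under 0.05 and 2-fold, beside 0% of all genes tested (0 of 17231). Over all genes 976 (5.66%) had an unadjusted p under 0.05, DESeq2 called 1 gene (Awat1, no member), and limma-voom called 0. The 2 groups overlapped for each of the 10 members. Of all tested genes, 6.24% had their 3 RAG1-/-Sgo1-/+ libraries above the 3 RAG1-/- libraries and 5.54% had them below. For a list of 10 genes, 0 is near these shares.

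**Figure D2:**
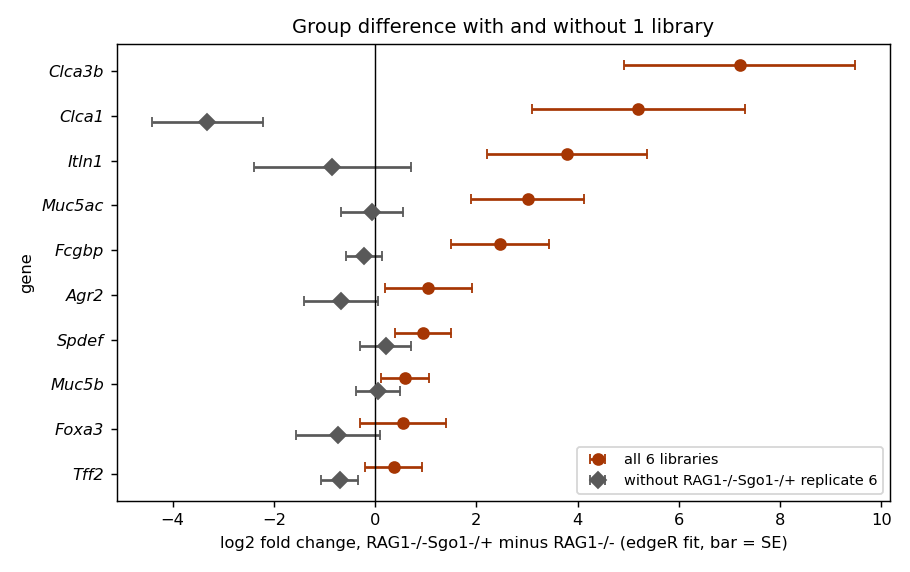
Log2 fold change of each goblet cell gene, RAG1-/-Sgo1-/+ minus RAG1-/-, from the edgeR fit with its SE, over all 6 libraries (circles) and without RAG1-/-Sgo1-/+ replicate 6 (diamonds, 9 genes). All 10 circles lie right of 0, and 7 of the 9 diamonds lie left of it, Clca1 furthest at −3.31, while the circle of Clca3b depends on the prior count since RAG1-/- had no reads.

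Replicate 6 also differed in the make-up of these transcripts. The 10 genes together took 293.5, 136.8 and 128.6 CPM in RAG1-/-, 138.4 and 191.7 CPM in replicates 4 and 5, and 2986 CPM in replicate 6. Muc5b made up 77.9, 46.8 and 74.4% of their counts in RAG1-/- and 79.1 and 84.1% in replicates 4 and 5, but 10.7% in replicate 6 (95% Wilson interval 10.1 to 11.3). Clca1 made up 78.5% of them in replicate 6 (77.6 to 79.3) and 35.8% in replicate 2 (32.2 to 39.4), against 4.77% in replicate 1 (4.03 to 5.63), 1.88% in replicate 3 (1.16 to 3.04), 1.17% in replicate 4 (0.593 to 2.29) and 1.35% in replicate 5 (0.807 to 2.26). These intervals cover counting error only. Replicate 2 and replicate 6 thus shared a high part of Clca1, at a level 47.9-fold apart.

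**Figure D3:**
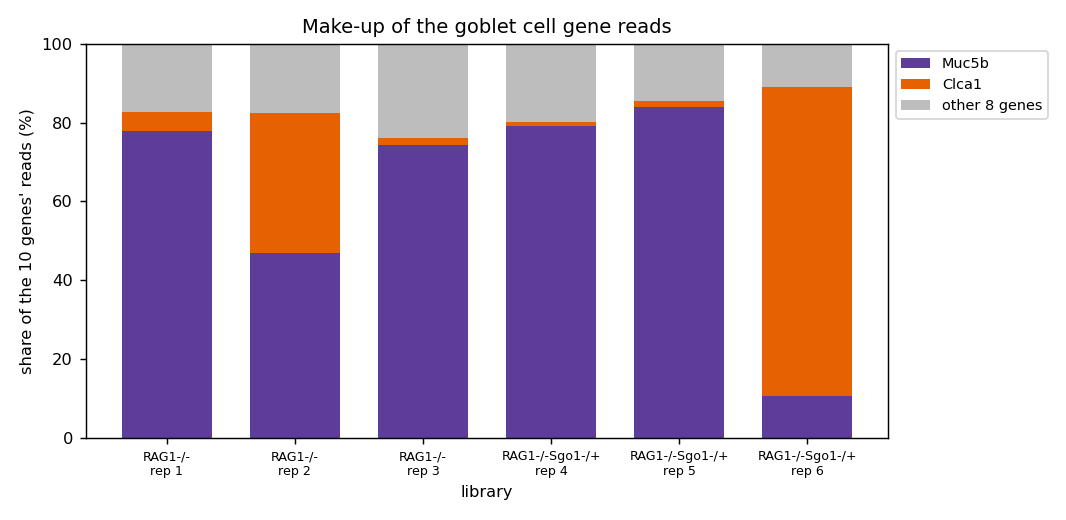
Share of the summed counts of the 10 goblet cell genes that fell on Muc5b, on Clca1 and on the other 8 genes, in percent, for each of the 6 libraries. Muc5b takes 46.8 to 84.1% in 5 libraries and 10.7% in replicate 6, where Clca1 takes 78.5%.

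Levels of the members can be set against each other per kilobase of transcript. In replicate 6 Clca1 was highest at 641 CPM per kb, followed by Tff2 (71.6), Fcgbp (22.4), Muc5b (21.3), Itln1 (14.8), Agr2 (11.0), Spdef (6.33), Muc5ac (4.67), Clca3b (2.78) and Foxa3 (2.76). By the median of the other 5 libraries Tff2 came first at 17.3 CPM per kb, then Muc5b (7.32), Agr2 (1.63), Spdef (1.47), Fcgbp (1.37), Foxa3 (0.728), Clca1 (0.710), Itln1 (0.354), Muc5ac (0.207) and Clca3b (0). Clca1 was thus seventh among the 10 by the median of the other 5 libraries and first in replicate 6. Its level ran from 1.62 to 48.9 CPM (replicate 2) over those 5, so its place by the median does not hold for each lung. Each level comes from few reads for Foxa3, Agr2, Itln1 and Clca3b, and neighbours such as Spdef and Fcgbp or Foxa3 and Clca1 lay within the spread between libraries.

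Among the 5 remaining libraries the members did not share an order. Replicate 1 was the highest of them for 6 members (Muc5ac, Muc5b, Spdef, Agr2, Tff2 and Fcgbp), replicate 3 for Foxa3 and Itln1, replicate 2 for Clca1 and replicate 5 for Clca3b. Over the 45 pairs of members the median Pearson r of log2(CPM + 1) was 0.85 across the 6 libraries and 0.27 across the 5 without replicate 6, with values from −0.60 to 0.92 and 13 of them below 0. These are descriptions over 6 or 5 libraries that share their depth with all members.

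The genes whose pattern over the 6 libraries was most like the mean of the members, among 3223 genes compared, were Lilr4b (Pearson r 0.998), Sirpa (0.996), Gpnmb (0.994), Lilrb4a (0.994), Chil3 (0.991), Bhlhe40 (0.990), Map3k21 (0.989), Ctsb (0.988), Clec7a (0.987) and Ctsk (0.987). Sirpa, Clec7a and the Lilrb genes encode myeloid cell receptors, and Ctsb and Ctsk lysosomal proteases. Lilr4b and Lilrb4a are close copies whose counts may not be independent. All but Bhlhe40 were at least 2-fold above every other library in replicate 6, and 102 genes (3.17% of those compared) had an r over 0.95. Among those closest to Clca1 alone were Ms4a8a (0.989), Acp5 (0.985), Arhgap25 (0.978) and Lilra6 (0.973), and the lists had 0 genes in common.

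Other genes of the pathway were taken from 17 hand-written lists with 206 genes, of which 200 were in the table and 153 were tested. With edgeR's quasi-likelihood test and Benjamini-Hochberg adjustment 0 of the 153 were called in either direction. In that test 11 had an unadjusted p under 0.05, beside 5.66% of all tested genes. The groups did not overlap for 10 of them: Ccl22, Erbb2, Jag2 and P2ry2 were higher in all 3 RAG1-/-Sgo1-/+ lungs (2.61%, beside 6.24% of all tested genes) and Ccl11, Clca3a1, Cpa3, Fcer1a, Gcnt4 and Siglecf lower (3.92%, beside 5.54%). Both shares were below those over all genes. Cpa3, Fcer1a and Gcnt4 count as apart only through the library totals, since replicates 2 and 4 had equal counts (10, 2 and 2). Of the other mucins, 7 were tested, and 0 of them were at least 2-fold above the other libraries in replicate 6. Muc1, a membrane mucin, was at 237.6 to 307.9 CPM in 5 libraries and at 433 CPM in replicate 6. Muc4, another one, was at 35.4 to 69.3 CPM and 93.0 CPM, Muc16 at 4.59 to 18.3 CPM and 16.5 CPM, and Muc20 at 10.1 to 16.9 CPM and 16.8 CPM.

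Of 8 tested relatives of the members, 0 were at least 2-fold above the other libraries in replicate 6, and 3 were highest there, beside 25.4% of all tested genes. Elf3, among these 3, was at 100.8 CPM in replicate 6 and at 41.8 to 55.6 CPM in the others. Agr3, a relative of Agr2 picked out with its values in view, was lowest in replicate 6, at 3.74 CPM beside 5.30 to 8.01 CPM. Foxa1 and Foxa2, forkhead factors of the same family as Foxa3, were at 111 and 100.8 CPM in replicate 6, within the ranges of the other libraries (96.2 to 121.8 and 84.7 to 116.4 CPM). Clca3a1, a relative of Clca3b picked out with its values in view, was at 2.99, 3.64 and 5.30 CPM in RAG1-/- and at 2.02, 2.78 and 1.87 CPM in RAG1-/-Sgo1-/+, so that all 3 RAG1-/-Sgo1-/+ lungs lay lower, with a log2 fold change of −0.81 (SE 0.45) and an adjusted p of 0.832 in the edgeR test. The trefoil genes Tff1 and Tff3, relatives of Tff2, gave no read in any library.

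Of the 25 tested genes that glycosylate and fold mucins, 3 were at least 2-fold above every other library in replicate 6, beside 2.51% of all tested genes. The median log2 fold change of the 25 was 0.027. The folding stress factor Xbp1 was at 237 to 298.8 CPM in 5 libraries and at 251.7 CPM in replicate 6, and Galnt1 and Galnt2, which start O-glycan chains, were at 124.1 and 107.0 CPM there, beside 118.5 to 132.3 and 109.7 to 122.3 CPM. The 3 that stood apart, named after their values were seen, included Galnt6, an enzyme of the same kind, at 24.0 to 27.0 CPM in 5 libraries and 85.5 CPM in replicate 6, and Ern2, the endoplasmic reticulum stress sensor of mucous cells, at 0.404 to 1.92 CPM and 4.99 CPM. The third was St6galnac1, which caps mucin sugars with sialic acid and had 0, 0, 2, 0, 0 and 10 counts over replicates 1 to 6. It reached the count for testing only through replicate 6, so its place among the 3 follows in part from the filter. Gcnt3, a mucin core enzyme with too few counts for testing that was named on the same grounds, had 6 counts in replicate 6 and 0 elsewhere. Of 18 tested genes of granule release and ion transport, Slc26a4, named on the same grounds, was alone in being at least 2-fold above the others in replicate 6. It encodes the anion exchanger pendrin and was at 5.93 to 9.70 CPM in 5 lungs and 68.6 CPM in replicate 6. The median log2 fold change of the 18 was −0.053, and 3 of them were highest in replicate 6, beside 25.4% of all tested genes. The list summed to 2303 CPM in replicate 6 and to 2365 to 2638 CPM in the others. Cftr, of the same list and picked out with its values in view, was lowest in replicate 6, at 9.98 CPM beside 19.3 to 35.2 CPM.

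The cytokines that drive mucous metaplasia gave few reads or none, whereas some of their known targets were highest where the members were. Il13, Il9, Il25 and the decoy receptor Il13ra2 had 0 counts in all 6 libraries, which allows up to 0.320 to 0.936 CPM, and Il4, picked out with its counts in view, had 4, 2 and 1 counts in RAG1-/- and 0 in RAG1-/-Sgo1-/+. The receptor chains Il4ra and Il13ra1 were at 109.8 and 158.5 CPM in replicate 6, beside 77.4 to 103.2 and 132.1 to 200.5 CPM in the others. Stat6 was at 153.8 CPM beside 131.7 to 159.5, and the alarmin Il33 at 221.5 CPM beside 111.7 to 212.7.

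Of 12 tested type 2 response targets, 6 were at least 2-fold above every other library in replicate 6, beside 2.51% of all tested genes. The median log2 fold change of the 12, 1.73, became −0.0051 without replicate 6. Chil3, a chitinase-like protein of alternatively activated macrophages, was at 650.8, 321.3 and 238.2 CPM in RAG1-/- and at 249.3, 238.8 and 6083 CPM in RAG1-/-Sgo1-/+. Chil4, a close copy of Chil3 whose reads could be split between the genes in counting, had 0, 10 and 0 counts against 0, 4 and 1335. Retnla, a resistin-like secreted protein, was at 83.8 to 93.1 CPM in RAG1-/- and at 83.6, 132.8 and 2580 CPM in RAG1-/-Sgo1-/+, and Arg1, the arginase of these macrophages, had 20, 8 and 16 counts against 7, 20 and 737. The chemokine Ccl24 (46 counts in replicate 6, 0 to 12 elsewhere) and Fxyd4 (34 counts, 0 to 5 elsewhere), both chosen after their values were seen, were the others. Postn, a matrix protein of the same response, was lowest in replicate 6, at 164.8 to 208.9 CPM in 5 lungs and 94.2 CPM there. Of the 12, 1 had all 3 RAG1-/-Sgo1-/+ lungs above the RAG1-/- lungs and 1 had them below, beside the 6.24% and 5.54% of all tested genes. The first was the chemokine Ccl22, at 8.97, 6.06 and 8.17 CPM against 9.70, 18.2 and 20.3 CPM, with a log2 fold change of 1.03 (SE 0.31) and an adjusted p of 0.832 in the edgeR test. The second was the eosinophil chemokine Ccl11, at 4.48, 4.04 and 4.84 CPM against 3.23, 2.96 and 2.50 CPM.

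**Figure D4:**
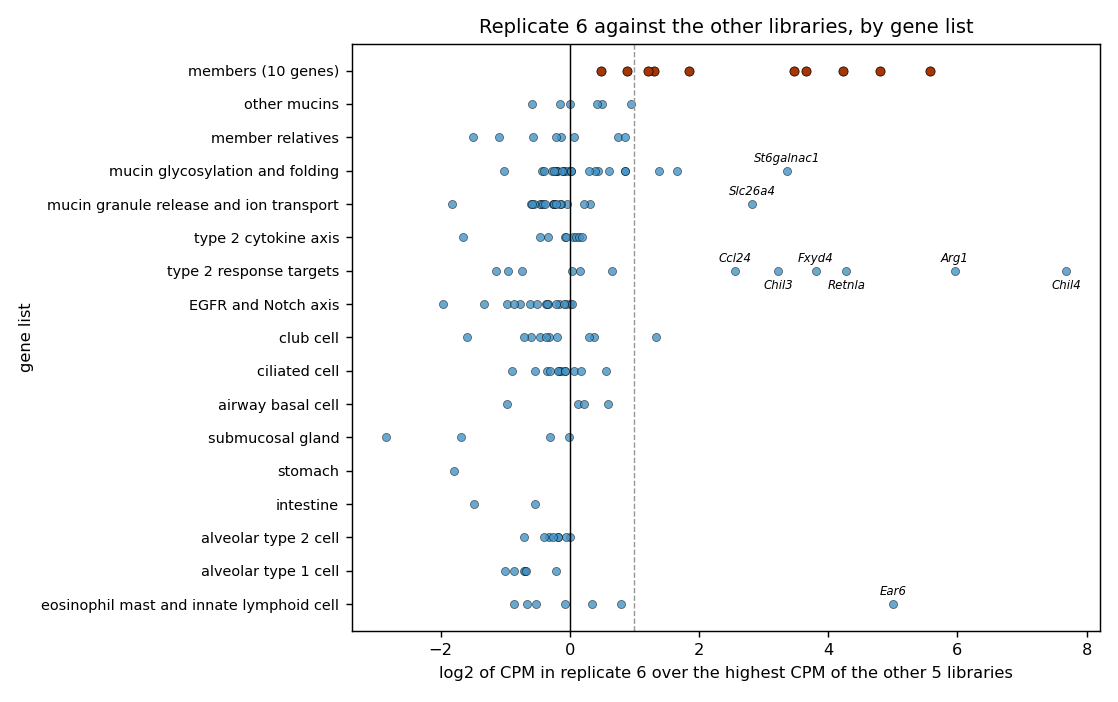
Log2 of the CPM in replicate 6 over the highest CPM of the other 5 libraries, with a point per gene, for the 10 members (top row) and for the tested genes of the related lists with reads in replicate 6. The dashed line marks 2-fold, which 8 of the 10 members and 6 type 2 response targets pass, beside 2.51% of all tested genes. From other lists Galnt6, St6galnac1, Ern2, Slc26a4, Bpifb1 and Ear6 pass it too. The points of St6galnac1 and Ear6 rest on 2 counts in the second highest library. Both genes, and Clca3b among the members, reached the count for testing only through replicate 6.

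Markers of the cells a lung piece can hold were read beside these values, and their part in the members' levels was not tested. Summed levels of airway markers varied between lungs. The 12 ciliated cell markers summed to 1573 CPM in replicate 6 and to 1151 to 1846 CPM in the others. The 10 club cell markers, led by Scgb1a1, summed to 68170 CPM in replicate 6 and to 56350 to 84280 CPM in the others. Without Scgb1a1 their sum was 9613 CPM in replicate 6 and 8845 to 12030 CPM in the others. Of the 10, 3 were highest in replicate 6 (Scgb3a1, Bpifb1 and Lypd2) and 2 were lowest there (Cldn10 at 35.3 CPM beside 42.0 to 57.4 CPM, and Aldh1a1 at 1154 CPM beside 1258 to 1494 CPM). Cyp2f2, a cytochrome of club cells, was at 3609 CPM in replicate 6 and at 3185 to 4941 CPM in the others. Scgb3a1 and Bpifb1, picked out with their values in view, had their highest levels in the lungs where Muc5b was highest. Scgb3a1 was at 814.5, 173.6 and 527.5 CPM in RAG1-/- and at 280.6, 421.6 and 1053 CPM in RAG1-/-Sgo1-/+, and Bpifb1 was at 117.5, 26.7 and 48.6 CPM against 38.4, 59.6 and 296 CPM.

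The 6 basal cell markers summed to 38.9 CPM in replicate 1, 29.3 CPM in replicate 6 and 10.7 to 17.0 CPM in the other 4, so the same 2 lungs were high. Of the 11 submucosal gland markers 7 were at 0 in every library, and the sum was 418.6 CPM in replicate 6, the lowest, against 504 to 937 CPM. That order is set by Lyz1 (270.8 CPM in replicate 6 beside 439.6 to 868.3 CPM). Without it the sum was 147.9 CPM in replicate 6, 153.9 CPM in replicate 1 and 46.9 to 64.5 CPM in the other 4, nearly all of it from Ltf, the lactoferrin gene. Cartilage markers of the large airways summed to 3.74 CPM in replicate 6 and to 0 to 0.808 CPM elsewhere, with 0 of the 8 reaching the count for testing and Col9a1 and Matn1 at 0 throughout. Of the stomach markers Gkn1, Atp4a, Atp4b and Tff1 were at 0 in all 6 libraries. The 6 stomach markers in the table summed to 0.808 to 3.84 CPM and the 8 intestinal markers to 2.81 to 6.06 CPM, with replicate 6 at 0.936 and 2.81 CPM. The 8 alveolar type 2 cell markers summed to 24220 CPM in replicate 6 against 26600 to 33990 CPM, and the 6 alveolar type 1 cell markers to 5113 against 5730 to 8408 CPM.

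Of the 13 markers of eosinophils, mast cells and innate lymphoid cells, the eosinophil genes Epx and Ccr3 were at 0 in all libraries and Prg2, another picked out after its counts were seen, in all but replicate 2 (4 counts). The list summed to 165.6 CPM in replicate 6 and to 102.8 to 126.1 CPM in the others. Of its 8 tested genes, 3 were highest in replicate 6, beside 25.4% of all tested genes. Ear2 was at 99.2 CPM there beside 55.4 to 78.3 CPM, and Il7r at 29.3 CPM beside 3.95 to 17.0 CPM. Ear1 was lowest there, at 20.6 CPM beside 26.7 to 29.5 CPM, as was Cpa3. Ear6, a ribonuclease gene chosen after its values were seen, had 22 counts in replicate 6 and 0 to 2 elsewhere. It reached the count for testing only through replicate 6, so its place among the 3 follows in part from the filter. Of the 8 tested, 3 were lower in CPM in all 3 RAG1-/-Sgo1-/+ lungs, beside 5.54% of all tested genes. They were Cpa3, Fcer1a and Siglecf, a receptor of eosinophils and alveolar macrophages. Cpa3 (2.46, 2.02 and 2.12 CPM against 2.02, 1.85 and 1.56 CPM) was apart by less than the rounding. Fcer1a had 6, 2 and 4 counts against 2, 0 and 0. For both genes replicates 2 and 4 had equal counts and differed only through the library totals. Of the 3, only Siglecf was apart beyond such a tie. Siglecf was at 9.61, 11.3 and 9.08 CPM against 4.44, 5.93 and 6.24 CPM, with a log2 fold change of −0.85 (SE 0.28) and an adjusted p of 0.832 in the edgeR test. In the EGFR and Notch list, whose pathways also act on airway secretory cells, 2 of 16 genes lay higher in all 3 RAG1-/-Sgo1-/+ lungs, beside 6.24% of all tested genes. Erbb2, a receptor gene, was at 58.2, 58.0 and 59.0 CPM against 61.0, 67.1 and 67.1 CPM. The other was the ligand gene Jag2 (20.4, 14.4 and 13.9 CPM against 23.8, 21.9 and 22.5 CPM), with a log2 fold change of 0.48 (SE 0.20) and an adjusted p of 0.832 in the edgeR test, and 0 of the 16 genes were at least 2-fold above the others in replicate 6.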

How the data were processed

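Lung RNA of 3 RAG1-/- and 3 RAG1-/-Sgo1-/+ mice was sequenced as paired ends, and the authors deposited 1 table of read counts per gene, made with GeneSifter on mouse build 37.2 (per the labels BWA and edgeR were used, versions not given in the sources used here). How reads mapping to several places were counted is not given there. Each of the 6 libraries has 2 columns in the table with identical values, and the first column was used. The deposited list of differential genes holds the authors' group means, ratios and p-values and was not used. Most deposited counts above 0 are even (63.5 to 69.0% per library), so neighbouring counts may not be independent reads. Samples were grouped by the labels, which do not say how the mice were related, so p-values measure the spread between these samples.

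Entrez IDs were matched to RefSeq symbols (24048 of 25860 genes, 93%). CPM are counts over the library's total count. For genes with at least 10 summed counts the groups were tested by quasi-likelihood in edgeR 4.0.16 (R 4.3.3; total count as library size, no further factor, prior count 0.125), with Benjamini-Hochberg adjustment. A gene was called at an adjusted p under 0.05 and 2-fold. The SE is the log2 fold change over the square root of F. Where every library of a group had 3 counts or fewer, a fold is a bound against 3 counts per library. Transcript lengths, one per gene, came from GENCODE on GRCm38. The workflow was tested on simulated data.

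The 10 members, the 17 related lists, the tests and the alternatives were chosen with earlier results of these data known. Named are the members, at most 5 genes with the most counts per list, genes called or with groups apart and an unadjusted p under 0.05, the 10 genes most like the members and 5 most like Clca1, of which 1 is not reported here (log2(CPM + 1), at least 60 counts and a span of 1), and Sgo1, Rag1, Xist, Ddx3y and Igkc. Genes outside this rule are marked as such, or stand in a count of genes with groups apart, of extremes in replicate 6 or of markers at 0 in every library. Alternatives were TMM and DESeq2 size factors, no filter, filterByExpr, DESeq2 1.42.0, limma-voom (limma 3.58.1), no fold threshold, a pseudocount of 0.25 CPM, each library left out, and, added after seeing the data, halved counts.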

Additional observations from a re-analysis of the deposited data

How the results depend on the processing

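None of the 10 genes was called under any alternative that tested it. DESeq2 gave no adjusted p for 3 of them (Muc5ac, Clca1 and Fcgbp). Of 122 tested values of single genes under 13 alternatives 113 kept their direction and side of the threshold and 9 reversed. With 1 library left out, always replicate 6 for the lowest value, the log2 fold change ranged from −0.059 to 3.57 for Muc5ac, from −3.31 to 6.52 for Clca1, from −0.73 to 1.09 for Foxa3, from −0.68 to 1.56 for Agr2, from −0.70 to 0.83 for Tff2, from −0.84 to 4.42 for Itln1 and from −0.21 to 3.01 for Fcgbp. Clca3b could not be fitted without replicate 6. With limma-voom it was −0.13 for Foxa3 and −0.16 for Tff2, and it came to 0.16 for Clca1, 1.13 for Muc5ac, 0.87 for Itln1, 0.82 for Fcgbp, 0.11 for Agr2, 0.59 for Spdef and 3.30 for Clca3b, with a median of 0.60 against 1.76 (the cause was not tested). The median of the 10 genes ranged from −0.68 (without replicate 6) to 2.27 (without replicate 4) with 1 library left out. Over all genes DESeq2 called 1 gene (Awat1), and 0 to 1 were called with a library left out (H2-K1 without replicate 5). Of the 10 genes most like the members, 0 (without replicate 6) to 6 were again among the first 10 with a library left out.

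filterByExpr dropped 4 members (Clca3b, Foxa3, Agr2 and Itln1), whose few reads limit any statement on them, and 3 counts in replicate 6 are already 0.936 CPM. With 3 lungs a group and 1 that stands apart, a genotype difference and a difference of that lung cannot be told apart. No paired analysis was possible because the library numbers 1 to 6 are not shared between the groups.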
